A study of Rattus norvegicus with 18 samples.

Results

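A set of 10 genes of the ATF4 pathway was followed through 18 rat retinas: Atf4 itself, the transcription factors Atf3, Atf5, Cebpb and Ddit3, the feedback regulators Trib3 and Ppp1r15a, and the effectors Chac1, Ddit4 and Vldlr. They were taken by gene symbol from the annotation of an Affymetrix rat Gene 1.0 ST array, which named 14506 genes on 29214 probe sets, and each of the 10 had 1 probe set. RNA came from the retinas of Sprague Dawley rats aged P80 to P120 kept from rearing on in cyclic light of 5 lux and fed a vegetable matrix, which also served as the vehicle for saffron. There were 6 groups of 3 arrays. LD retinas were exposed to bright light for 24 h without pretreatment. PBMLD retinas had the same light after photobiomodulation (PBM), which was red light for 3 min a day on 5 days, and SafLD retinas had it after 3 weeks of dietary saffron (1 mg/kg/day). The PBM and saffron groups had the pretreatment alone, and the control group had neither. The light is given as 1000 lux for all 3 light-exposed groups in the sample descriptions and in the study's methods. The source field of the LD samples alone reads 100 lux. Each retina came from a different animal according to the study's methods, which also mention both sexes in every group. The labels do not give the sex of the rat behind an array, and sex was not examined from the values here.

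ATF4 is the central transcription factor of the integrated stress response. Kinases that sense misfolded protein, lack of amino acids, viral RNA or lack of haem phosphorylate the initiation factor eIF2, which slows most translation while that of Atf4 mRNA increases. The protein then switches on genes for amino acid uptake and synthesis and for tRNA charging, together with further transcription factors and with the regulators that end the response. Much of the control of ATF4 is therefore exerted on its protein, which an RNA array does not measure. In photoreceptors the response is known from inherited degenerations with misfolded rhodopsin.

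The values are log2 intensities as the authors summarised them, so that a difference of 1 is a doubling, and levels are compared only within a gene. Differences are given with their standard errors from a limma fit to all arrays, and a gene passed when its p, adjusted over all probe sets by Benjamini-Hochberg, was below 0.05. The array medians ran from 6.12 to 6.19, and the correlation between arrays from 0.976 to 0.994. Rod photoreceptor genes, which mark the tissue, averaged 12.0 to 12.8 on each array. Lens genes differed within groups: their mean was 11.6, 9.22 and 11.4 in the LD arrays, 10.7, 9.61 and 9.71 in PBMLD, 10.1, 9.48 and 9.19 in SafLD, and between 9.16 and 10.8 in the unexposed arrays, where saffron array 1 had the highest. Results that changed when the 4 arrays with the highest means (LD 1, LD 3, PBMLD 1 and saffron 1) were left out, a step chosen after seeing the data, are given as such. That step leaves LD with 1 array, LD 2.

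The light response of the pathway was clear and uneven. When the 9 light-exposed arrays were set against the 9 unexposed ones, 7 of the 10 genes passed, all higher: Atf3, Trib3, Cebpb, Chac1, Vldlr, Atf5 and Atf4. Among all probe sets 2.83% passed in that direction. The 10 genes were chosen with earlier results of these data known, so these shares are a description and not a test. Atf3 and Trib3 were the genes that changed more than 2-fold, as did 0.377% of probe sets, higher. Ddit3, Ddit4 and Ppp1r15a did not pass. The median difference of the 10 genes was 0.52, against -0.01 for all probe sets. All 7 genes passed again with any 1 of the 18 arrays left out. For Atf3, Trib3, Atf5 and Atf4 each light-exposed array lay above each unexposed one, which was so for 0.633% of probe sets.

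**Figure D1:**
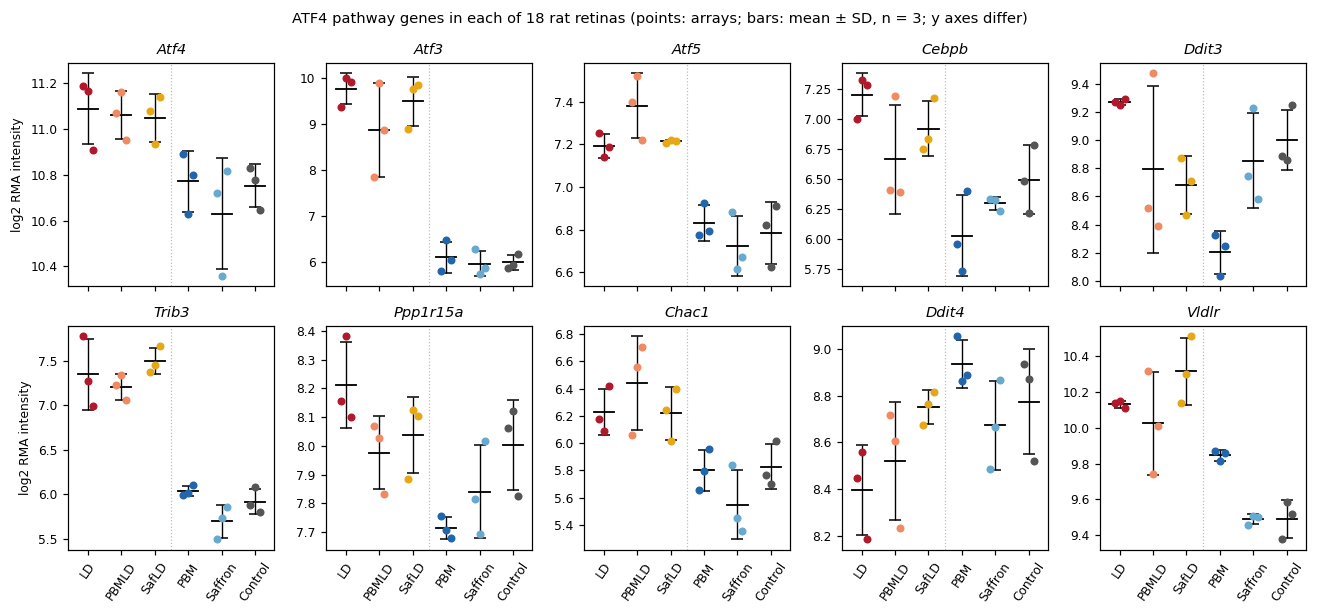
Log2 RMA intensity of each of the 10 genes (y axis, scaled for each gene) in the LD, PBMLD, SafLD, PBM, saffron and control groups (x axis). Points are arrays, lines and bars the mean ± SD of 3 arrays, and the dotted line divides light-exposed from unexposed groups. Atf3 lies between 7.84 and 10.004 in light-exposed arrays and between 5.74 and 6.47 in unexposed arrays.

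Atf4, the core factor, changed little at the RNA level. It read 11.19, 11.17 and 10.91 in LD retinas, 11.07, 11.16 and 10.95 in PBMLD and 11.08, 10.93 and 11.14 in SafLD. The unexposed retinas gave 10.89, 10.63 and 10.80 in PBM, 10.72, 10.36 and 10.82 in saffron, and 10.83, 10.78 and 10.65 in control. The lowest exposed array, LD 3 at 10.91, was just above the highest unexposed one, PBM 1 at 10.89. The difference over all arrays was 0.35±0.08 (1.27-fold, adjusted p = 0.0119). It did not pass without the 4 arrays rich in lens RNA, where it was 0.39 and LD was left with 1 array, LD 2. Nor did it pass in LD against control alone (0.34±0.13, adjusted p = 0.38), although these 2 groups did not overlap.

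Atf3 encodes a stress-induced factor of the same family and is a direct ATF4 target, though other pathways induce it as well. Its values were 9.38, 10.004 and 9.91 in LD retinas, 7.84, 9.89 and 8.87 in PBMLD, and 8.88, 9.75 and 9.85 in SafLD. They were 5.80, 6.47 and 6.03 in PBM, 6.27, 5.74 and 5.87 in saffron, and 5.86, 5.92 and 6.17 in control. The groups with light were thus far above those without it, and the widest spread was in PBMLD (SD 1.03, against 0.34 in LD). Over all arrays the difference was 3.36±0.21, or 10.27-fold (adjusted p = 4.03e-08). It was 3.78±0.37 in LD against control, 2.88±0.37 in PBMLD against control and 3.51±0.37 in SafLD against control, and it passed in all 3. These 3 comparisons share their control arrays.

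Trib3, a pseudokinase that binds ATF4 and holds back its activity, followed the same division. Its scatter was smaller than that of Atf3 in every group except LD (SD 0.40, against 0.34 for Atf3). It read 7.77, 7.27 and 6.99 in LD retinas, 7.22, 7.34 and 7.05 in PBMLD, and 7.37, 7.45 and 7.66 in SafLD. The unexposed values were 5.98, 6.02 and 6.10 in PBM, 5.49, 5.73 and 5.85 in saffron, and 5.87, 6.07 and 5.79 in control. The lowest exposed array (LD 3, 6.99) was above the highest unexposed one (PBM 3, 6.10). The overall difference was 1.47±0.10, or 2.77-fold (adjusted p = 5.5e-08). Trib3 also passed in each exposed group against control, at 1.43±0.17 in LD, 1.29±0.17 in PBMLD and 1.58±0.17 in SafLD.

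Atf5, a further bZIP factor whose translation is controlled like that of Atf4, was moderately higher with light. Its values were 7.25, 7.14 and 7.19 in LD retinas, 7.40, 7.52 and 7.22 in PBMLD, and 7.21, 7.22 and 7.21 in SafLD, against 6.77, 6.93 and 6.79 in PBM, 6.88, 6.61 and 6.67 in saffron, and 6.82, 6.62 and 6.91 in control. PBMLD had the highest mean of the 6 groups. The overall difference was 0.48±0.07 (1.398-fold, adjusted p = 0.000227). Against control Atf5 passed in PBMLD (0.60±0.12, adjusted p = 0.0185) and not in LD (0.41±0.12, adjusted p = 0.129) or SafLD (0.43±0.12, adjusted p = 0.0563). The PBMLD call was lost without control 1, control 2 or PBMLD 1 (adjusted p = 0.0719, 0.112 and 0.0531), and without the arrays rich in lens RNA (adjusted p = 0.0737). The exposed groups did not differ from each other at the threshold: PBMLD minus LD was 0.19, with a 95% interval from -0.06 to 0.43.

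Cebpb encodes C/EBP beta, which pairs with ATF4 on composite DNA elements and also drives acute-phase and cytokine genes. It read 6.998, 7.33 and 7.29 in LD retinas, 6.41, 7.19 and 6.39 in PBMLD, and 6.75, 6.83 and 7.18 in SafLD. Without light it read 5.96, 5.73 and 6.399 in PBM, 6.34, 6.32 and 6.24 in saffron, and 6.49, 6.21 and 6.78 in control. Exposed and unexposed arrays overlapped, since PBMLD 1 and 3 lay below control 1 and 3. The overall difference was 0.65±0.12 (1.57-fold, adjusted p = 0.00366). No single exposed group passed against control. The LD difference of 0.71±0.21 had an adjusted p of 0.169.

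Ddit3, which encodes the proapoptotic factor CHOP and is often used as a marker of the stress response, did not follow Atf3. Its values were 9.27, 9.25 and 9.29 in LD retinas, 8.52, 9.47 and 8.39 in PBMLD, and 8.87, 8.47 and 8.71 in SafLD. They were 8.33, 8.03 and 8.25 in PBM, 8.75, 9.23 and 8.58 in saffron, and 8.89, 8.86 and 9.25 in control. LD arrays lay close together (SD 0.02) and just above the highest control, while the lowest values were those of PBM. The light difference over all arrays was 0.23±0.13 (adjusted p = 0.441), and LD minus control was 0.27 with a 95% interval from -0.21 to 0.76. PBMLD minus PBM was 0.59±0.23 and SafLD minus saffron -0.17±0.23, and neither passed.

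Ppp1r15a encodes GADD34, the stress-induced subunit that directs a phosphatase to eIF2 and so ends the response. It read 8.16, 8.38 and 8.10 in LD retinas, 8.07, 8.03 and 7.83 in PBMLD, and 7.89, 8.12 and 8.10 in SafLD, against 7.76, 7.71 and 7.68 in PBM, 7.81, 7.69 and 8.02 in saffron, and 8.06, 8.12 and 7.83 in control. The LD and control ranges overlapped. The overall difference of 0.22±0.07 did not pass (adjusted p = 0.105).

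Among the effectors, Chac1 encodes an enzyme that degrades glutathione. Its values were 6.18, 6.09 and 6.42 in LD retinas, 6.06, 6.56 and 6.71 in PBMLD, and 6.25, 6.01 and 6.398 in SafLD, against 5.65, 5.79 and 5.95 in PBM, 5.84, 5.45 and 5.35 in saffron, and 5.77, 5.70 and 6.01 in control. All exposed arrays were at or above the highest control. The overall difference was 0.57±0.10 (1.49-fold, adjusted p = 0.00218). In PBMLD against control it was 0.62±0.18 (adjusted p = 0.136), and it passed without PBMLD 1 (0.81, adjusted p = 0.0338) and without the arrays rich in lens RNA (adjusted p = 0.0264).

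Vldlr encodes the very low density lipoprotein receptor, which in the retina is known for restraining vessel growth. It read 10.14, 10.15 and 10.11 in LD retinas, 10.32, 9.74 and 10.01 in PBMLD, and 10.14, 10.302 and 10.51 in SafLD. It read 9.87, 9.81 and 9.86 in PBM, 9.459, 9.508 and 9.504 in saffron, and 9.38, 9.58 and 9.52 in control. All PBM arrays were above the saffron and control arrays and below those of LD and SafLD, while PBMLD 2 lay below them. The overall light difference was 0.55±0.08 (1.46-fold, adjusted p = 0.000258). Vldlr passed in SafLD against control (0.82±0.13, adjusted p = 0.0025) and in LD against control (0.64±0.13, adjusted p = 0.024). PBMLD against control gave 0.53±0.13 (adjusted p = 0.0763), which passed without PBMLD 2 (0.67, adjusted p = 0.0118). The LD call was lost without any 1 control array or without LD 2 or LD 3 (adjusted p from 0.0576 to 0.136). It was also lost without the arrays rich in lens RNA, where 1 LD array was left and the difference was 0.66.

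Ddit4 encodes REDD1, an inhibitor of the growth kinase mTORC1. Over all arrays it was the only one of the 10 genes whose mean was lower with light. In SafLD against saffron it was higher by 0.08±0.15, which did not pass, and Ddit3 was the gene that was lower. Its values were 8.45, 8.56 and 8.18 in LD retinas, 8.72, 8.61 and 8.23 in PBMLD, and 8.67, 8.76 and 8.82 in SafLD, against 9.06, 8.86 and 8.89 in PBM, 8.49, 8.66 and 8.87 in saffron, and 8.94, 8.87 and 8.52 in control. The overall difference of -0.24±0.09 did not pass (adjusted p = 0.161), and LD and control arrays overlapped.

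**Figure D2:**
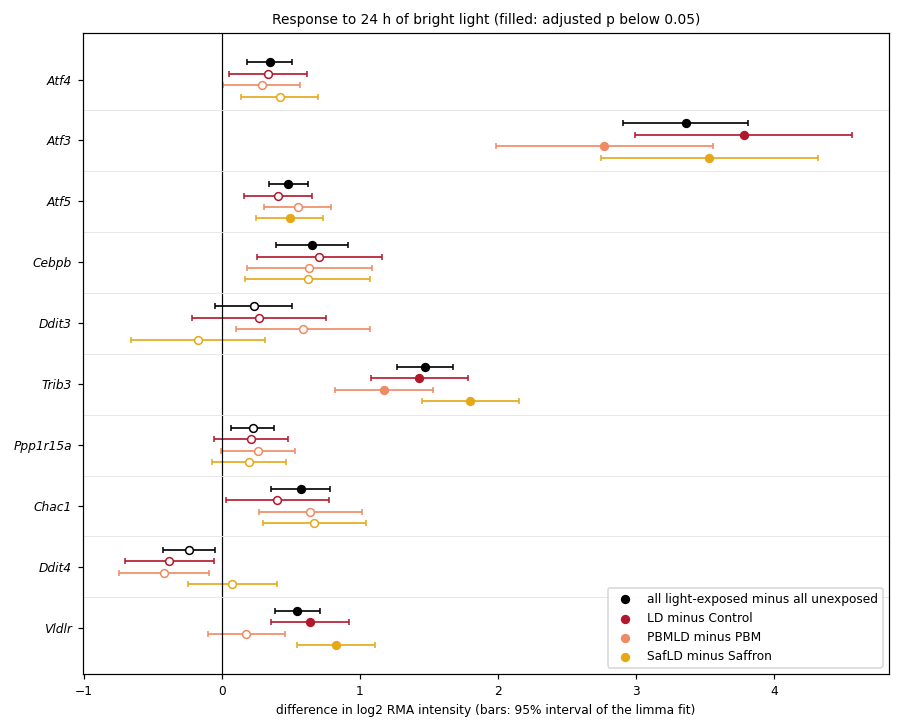
Difference in log2 RMA intensity (x axis) of each gene (y axis) between light-exposed and unexposed retinas: all arrays together, LD minus control, PBMLD minus PBM, and SafLD minus saffron. Points are fitted differences, bars are 95% intervals, and filled points passed. Atf3 and Trib3 are filled in every comparison, Ddit3, Ppp1r15a and Ddit4 in none.

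Promoters of the genes were read for the DNA elements of these factors, from 250 bases before to 50 bases after the annotated start in RefSeq (assembly GRCr8). Windows were held for 9 of the 10 genes, all but Atf3. For Atf5 and Vldlr the start used by that table lies within the gene, 2816 and 917 bases inside its outermost annotated 5′ end, so their windows are not at that end. The composite C/EBP-ATF response element, searched on both strands as TGATGNAA, was found in Trib3, at position -21 from the start, and in Chac1, at -167, both on the minus strand of the window. It was found in 3.98% of the 33469 rat windows of this length. The cyclic AMP response element TGACGTCA was found in Ppp1r15a, at position -66, and in 1.83% of all windows. The AP-1 element TGANTCA was found in Atf5, Ddit3 and Ppp1r15a and in 7.33% of all windows, and the ER stress element in none of the 9 and in 0.0657% of all windows. None of these matches overlapped another. The 3 windows below are shown because they hold the composite or the cyclic AMP element, printed 5′ to 3′ on the gene's strand with that element in capitals.
Trib3 (chr3:161275484-161275783, minus strand, GRCr8): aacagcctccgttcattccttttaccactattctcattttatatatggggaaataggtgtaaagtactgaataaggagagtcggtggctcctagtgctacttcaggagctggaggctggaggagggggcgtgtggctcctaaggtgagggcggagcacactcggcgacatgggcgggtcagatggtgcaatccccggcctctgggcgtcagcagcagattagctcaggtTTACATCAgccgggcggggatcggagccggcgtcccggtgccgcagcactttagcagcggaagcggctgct
Chac1 (chr3:126795881-126796180, plus strand, GRCr8): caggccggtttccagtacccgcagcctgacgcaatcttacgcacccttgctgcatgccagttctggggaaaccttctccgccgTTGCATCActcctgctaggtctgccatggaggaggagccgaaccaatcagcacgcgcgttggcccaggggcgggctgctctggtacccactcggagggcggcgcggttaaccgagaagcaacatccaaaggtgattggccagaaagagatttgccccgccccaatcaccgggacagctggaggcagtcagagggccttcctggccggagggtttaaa
Ppp1r15a (chr1:105139547-105139846, minus strand, GRCr8): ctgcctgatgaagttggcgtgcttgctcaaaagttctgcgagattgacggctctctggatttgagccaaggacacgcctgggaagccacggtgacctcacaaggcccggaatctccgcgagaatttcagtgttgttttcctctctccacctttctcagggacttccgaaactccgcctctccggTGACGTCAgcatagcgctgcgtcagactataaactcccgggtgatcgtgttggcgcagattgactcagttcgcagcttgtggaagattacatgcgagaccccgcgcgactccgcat
Of the 3 genes, Trib3 and Chac1 were higher with light and Ppp1r15a did not pass. Cebpb and Atf4, which also passed, had neither element within their windows, nor did Atf5 and Vldlr in their internal ones, and Atf3 was not read.

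The response was also measured separately in each pretreatment, by setting the exposed group against the same pretreatment without light. In LD against control, 3 of 10 genes passed (Atf3, Trib3 and Vldlr), all higher, against 0.839% of all probe sets. In 8 of the 10, every LD array lay above every control array, which was so for 7.54% of probe sets. In PBMLD against PBM, 2 passed, Atf3 (2.77±0.37, 6.81-fold, adjusted p = 0.00213) and Trib3 (1.17±0.17, 2.26-fold, adjusted p = 0.00257), against 0.205% of probe sets higher. Atf5 was just outside (0.55±0.12, adjusted p = 0.053). In a limma fit to the PBMLD and PBM arrays alone, the Atf3 call was lost (adjusted p = 0.157). In SafLD against saffron, 4 passed, against 1.14% of probe sets higher: Atf3 (3.53±0.37, 11.6-fold), Trib3 (1.80±0.17, 3.48-fold), Vldlr (0.83±0.13, adjusted p = 0.00201) and Atf5 (0.49±0.12, adjusted p = 0.0337). The Atf5 call was lost without saffron 2 or 3 or without any 1 SafLD array (adjusted p from 0.0654 to 0.137), and without the arrays rich in lens RNA (adjusted p = 0.0568). Without those arrays Chac1 passed in PBMLD against PBM (0.83, adjusted p = 0.0255) and in SafLD against saffron (0.82, adjusted p = 0.0173). In PBMLD against control 3 genes passed (Atf3, Trib3 and Atf5), against 0.325% of probe sets higher, and in SafLD against control 3 passed (Atf3, Trib3 and Vldlr), against 1.45%.

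Whether a pretreatment altered the light response was tested by the interaction, that is, the difference between the light effect with and without pretreatment. None of the 10 genes passed for PBM or for saffron, and across all probe sets 0.00685% and 0.14% passed. At an unadjusted p below 0.05 the limma fit gave 1 of 10 genes for PBM, against 4.26% of all probe sets, and 0 for saffron, against 5.84%. The 1 gene was Vldlr, whose light effect was smaller by 0.46±0.19 with PBM (adjusted p = 0.999). Without light, PBM minus control was 0.35±0.13, which did not pass, while PBMLD minus PBM was 0.18±0.13 and LD minus control was 0.64±0.13. For Atf3 the PBM interaction was -1.01, with a 95% interval from -2.12 to 0.10, and the saffron interaction was -0.25, from -1.36 to 0.86. These intervals are wide enough to hold both no change and a change of more than 2-fold.

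Among the light-exposed groups the pretreatments were compared directly. None of the 10 genes passed in PBMLD against LD, in SafLD against LD or in PBMLD against SafLD, where 0.284%, 0.308% and 0% of all probe sets passed. In the same limma fit 2, 2 and 1 of the 10 genes had an unadjusted p below 0.05, against 11.5%, 9.55% and 8.32% of all probe sets, and the methods' t-test gave 0 in each after adjustment. That adjusted t-test called 0 probe sets in LD against control too, where Atf3 had an adjusted p of 0.31. Its 0 therefore cannot show that the groups were alike. Atf3 was lower in PBMLD than in LD by a mean of 0.90 (95% interval of the difference from -1.68 to -0.11, adjusted p = 0.367), and the arrays overlapped. This value depended on single arrays: the difference was -0.38 without PBMLD 1 and -1.41 without PBMLD 2. Mean levels of reactive glia genes moved alongside, at 8.76, 9.69 and 9.88 in LD 1 to 3 and 7.72, 8.97 and 8.64 in PBMLD 1 to 3, with PBMLD 1 the lowest exposed array for both these genes and Atf3. Their part in the difference was not tested. Cebpb was lower in PBMLD than in LD as well (-0.54±0.21, adjusted p = 0.35). The difference was -0.80 without PBMLD 2 and -0.40 without PBMLD 3. SafLD minus LD was 0.15 for Trib3, with a 95% interval from -0.20 to 0.50, and -0.27 for Atf3, from -1.06 to 0.51.

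Ddit3 and Ddit4 were the genes that set SafLD apart from LD in every array. Ddit3 was lower in SafLD (-0.59±0.23, adjusted p = 0.397), with all 3 arrays below all 3 of LD, which was so for 6.5% of probe sets. Ddit4 was higher in SafLD (0.35±0.15, adjusted p = 0.47), with all 3 arrays above those of LD, which was so for 10.1% of probe sets. Neither passed, and groups that did not overlap were about as frequent over the whole array.

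Without light, neither pretreatment gave a difference that passed. This held for all 10 genes in PBM against control, where 0.154% of probe sets passed, and in saffron against control, where 0% passed. At an unadjusted p below 0.05 the fit gave 4 of 10 genes for PBM, against 9.96% of all probe sets, and 0 for saffron, against 4.6%, and the methods' t-test gave 0 in both after adjustment. Among all probe sets that adjusted t-test called 13 in PBM against control and 0 in LD against control, so a 0 from it decides little. Ddit3 had the largest difference with PBM: it was lower in all 3 PBM arrays than in any control array, with a difference of -0.80±0.23 (0.58-fold, adjusted p = 0.235). It passed when arrays were weighted by their quality (-0.74, adjusted p = 0.0182), a setting that raised the probe sets called from 45 to 802. Ppp1r15a was likewise lower in every PBM array than in every control array (-0.29±0.13, adjusted p = 0.466), and Vldlr was higher (0.35±0.13, adjusted p = 0.39). Arrays all lower occurred for 11.4% of probe sets and arrays all higher for 11.8%. Cebpb was lower by a mean of 0.47 (interval of the difference from -0.92 to -0.01) with overlapping arrays. With saffron all 10 differences were negative, from -0.28 for Chac1 to -0.002 for Vldlr, with a median of -0.13 against 0.01 for all probe sets. The 10 differences come from the same saffron and control arrays, so their shared sign is not 10 separate results. In no gene were the groups apart, which they were for 5.19% of probe sets with saffron higher and 4.85% with saffron lower. PBM and saffron did not differ from each other in any of the 10 genes at the threshold (0 passed, 2 at an unadjusted p below 0.05 against 13.2% of all probe sets, 0 by the adjusted t-test, and 0.435% of all probe sets passed).

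**Figure D3:**
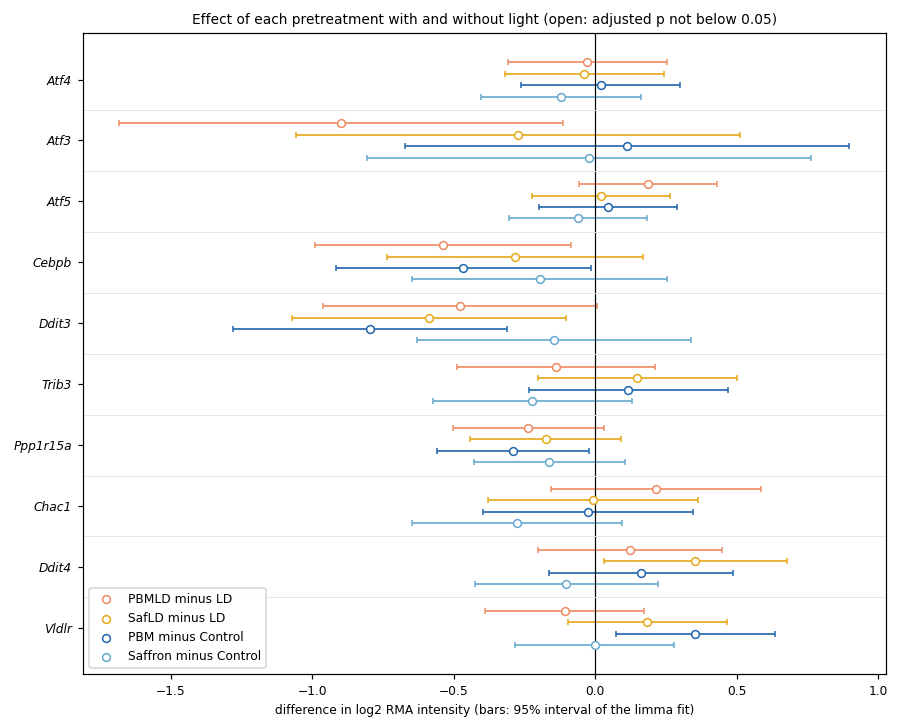
Difference in log2 RMA intensity (x axis) of each gene (y axis) for PBMLD minus LD, SafLD minus LD, PBM minus control and saffron minus control. Points are fitted differences, bars are 95% intervals, and no gene passed. The interval for Ddit3 in PBM minus control runs from -1.28 to -0.31, and that for Atf3 in PBMLD minus LD from -1.68 to -0.11.

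The wider pathway was described by further genes. In 7 lists of related genes, 98 genes were measured, and 37 were higher and 4 lower with light over all arrays, against 2.83% and 2% of all probe sets. The lists too were chosen with earlier results of these data known, so these shares do not test the pathway. The charging enzymes of tRNA were the most complete group, with 11 of 12 higher and none lower, and a median difference of 0.75 against -0.01 for all probe sets. Tars1, which charges threonine tRNA, was higher by 1.15±0.07 (adjusted p = 1.62e-08), and in LD against control, where 7 of the 12 passed, by 1.22±0.12. Of 10 amino acid transporters, 5 were higher and none lower: Slc1a4 (1.22±0.11), Slc7a1 (1.21±0.09), Slc38a2 (0.99±0.10), Slc1a5 (0.98±0.18) and Slc7a11 (0.68±0.17). Slc7a11 imports cystine, the precursor of glutathione. In PBMLD against PBM, Slc1a4, Slc7a1 and Slc38a2 passed, while Slc1a5 (0.64±0.32) and Slc7a11 (0.02±0.30) did not.

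Enzymes of amino acid and one-carbon metabolism divided: 6 of 15 were higher and 3 lower, with a median of 0.06. Asns, asparagine synthetase, was higher by 1.89±0.07 (3.71-fold, adjusted p = 1.47e-10), and the mitochondrial folate enzyme Mthfd2 by 1.77±0.08. The lower genes were Got1 (-0.51±0.08), Cth (-0.52±0.10) and Phgdh (-0.48±0.12), of which Phgdh begins serine synthesis and Cth makes cysteine. In LD against control Asns was the gene of this list with the largest rise (1.91±0.13), and Got1 was the only one of the lower genes that passed (-0.62±0.13). Phgdh (-0.75±0.22, adjusted p = 0.136) and Cth (-0.69±0.18, adjusted p = 0.0872) did not.

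Of 15 measured genes listed as secreted, signalling and further ATF4 targets, 5 were higher and 1 lower. Gdf15, a stress-induced hormone, was higher by 1.52±0.09 (2.87-fold), Cebpg by 0.73±0.10, Herpud1 by 0.67±0.07, Adm2 by 0.40±0.11 and Bbc3 by 0.26±0.07. Txnip, which binds thioredoxin, was lower (-0.57±0.15). Of 16 other factors of the ATF, CREB and C/EBP families and their partners, 6 were higher: Cebpd (1.21±0.12), Nfe2l2 (0.85±0.14), Cebpg, Atf7 (0.47±0.09), Creb1 (0.33±0.08) and Atf1 (0.28±0.08). Cebpd was the only one of these that passed in LD against control (1.52±0.20, adjusted p = 0.000695).

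Upstream of ATF4, 4 of 16 genes for eIF2, its kinases and its regulators were higher over all arrays. They were Ppp1r15b (0.53±0.13), Eif2s2 (0.50±0.10), Eif2ak2 (0.47±0.13) and Eif2ak3 (0.42±0.09). Eif2ak3 encodes PERK, the kinase that senses stress in the endoplasmic reticulum, and Ppp1r15b the constitutive counterpart of GADD34. Chaperones and targets of ATF6 and XBP1, the other arms of the response to misfolded protein, gave 1 of 18, Dnajb9 (0.32±0.06, adjusted p = 0.00537). Hspa5, the main chaperone of the endoplasmic reticulum, differed by 0.23±0.09 (adjusted p = 0.218) and Xbp1 by 0.18±0.08 (adjusted p = 0.306). The median of the list was 0.04. Herpud1 was counted with the ATF4 targets and not in this list.

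**Figure D4:**
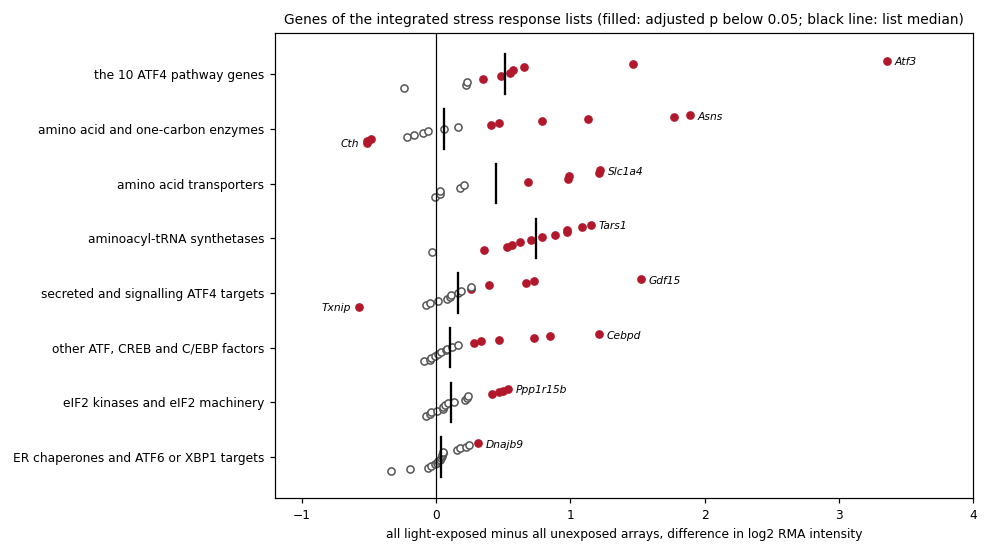
Difference in log2 RMA intensity between all light-exposed and all unexposed arrays (x axis) for the 10 genes and for the genes of 7 lists (y axis). Each point is a gene, filled where it passed, and black lines are list medians. The synthetase list has 11 of 12 genes filled on the right and the chaperone list 1 of 18.

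As among the 10 genes, none of the 98 genes passed in PBM or saffron against control or in any comparison between exposed groups. At an unadjusted p below 0.05 the limma fit gave 3 of the 98 for PBM and 2 for saffron against control, where 9.96% and 4.6% of all probe sets reached it. It gave 11 for PBMLD against LD, 5 for SafLD against LD and 14 for PBMLD against SafLD, where 11.5%, 9.55% and 8.32% did.

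Markers of cell types changed with light beside the pathway. Of 12 genes of reactive glia, 11 passed and were higher, over all arrays and in LD against control. Gfap, the classic marker, was higher by 2.69±0.15 over all arrays and by 3.27±0.27 in LD against control (9.67-fold), and Serpina3n had the largest LD difference of the list (3.85±0.57). The mean of this list lay between 8.76 and 9.88 in LD, 7.72 and 8.97 in PBMLD, and 8.87 and 9.27 in SafLD, against 7.14 to 7.28 in PBM, 7.34 to 7.61 in saffron and 7.08 to 7.35 in control. Of 10 rod genes 4 were lower over all arrays (Nrl, Rcvrn, Rom1 and Gnat1, from -0.82 to -0.49), and the list's mean lay between 11.98 and 12.46 in LD, 12.25 and 12.56 in PBMLD, and 12.36 and 12.44 in SafLD, against 12.69 to 12.73 in PBM, 12.54 to 12.67 in saffron and 12.62 to 12.75 in control. Fewer rods and less RNA per rod cannot be told apart in whole retina. Of 12 microglial and macrophage genes, Cd14 was higher (0.60±0.16) and P2ry12 lower (-0.70±0.14), with the list's mean between 5.46 and 5.92 in exposed and 5.41 and 5.76 in unexposed arrays. No gene of the lens, pigment epithelium or blood lists passed, although the lens list's median was 1.098 in LD against control, and of 7 Muller cell genes Car2 was lower (-0.27±0.07). The part of these cell types in the pathway's response was not tested.

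The 10 genes did not move as a block from retina to retina. Over the 18 arrays the median correlation among their 45 pairs was 0.61, with exposed and unexposed arrays pooled. After each group's mean was taken away the median was 0.11, and 7 pairs were above 0.5. The closest pair was then Ddit4 with Ppp1r15a (r = 0.82), followed by Ddit3 with Cebpb (0.68), and the most opposed was Ddit4 with Chac1 (-0.78). Measured as the median of the 10 genes above the control mean, the rise was 0.45, 0.40 and 0.50 in LD 1 to 3, 0.27, 0.58 and 0.32 in PBMLD 1 to 3, and 0.37, 0.26 and 0.50 in SafLD 1 to 3. The unexposed arrays lay between -0.18 and 0.07. Atf3 had the largest rise of the 10 in every exposed array.

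The genes most like each member were sought over the 18 arrays by Pearson correlation, as a description, since arrays of a group share their light exposure and pretreatment. Atf3 was nearest to Cish (r = 0.979, and 0.926 within groups), a suppressor of cytokine signalling, then to Jun and Tars1 (both 0.974). Trib3 was nearest to Mthfd2 (0.976), Jun (0.964) and Tnip2 (0.963). Vldlr was nearest to Prom1 (0.967), a protein of photoreceptor discs, and to Xpot (0.961) and Mars1 (0.949), which export and charge tRNA. Atf5 was nearest to Chsy1 (0.894), Mthfd2 (0.893) and Gars1 (0.887), and its likeness to Gars1 was absent within groups (-0.10). Atf4 was nearest to Pprc1 (0.919), Irf2bpl (0.879) and Prkab2 (0.878). Cebpb was nearest to Ier3 (0.924), Tgm1 (0.911) and the cytokine gene Il1b (0.904). Chac1 was nearest to Egln3 (0.885), Eif6 (0.876) and Metap1 (0.849).

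The genes that did not pass with light had other neighbours. Ddit3 was nearest to Rps18 (0.906), Med21 (0.892) and Nol12 (0.888), and these likenesses held within groups (0.903, 0.913 and 0.807). Ddit4 was nearest to Kif3b (0.877), Tmem196 (0.872) and Kank1 (0.860). Ppp1r15a was nearest to Pak1ip1 (0.881), Map7 (0.865) and Map3k14 (0.857).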

How the data were processed

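Retinal RNA was measured on 18 arrays, 3 in each of 6 groups, which were assigned from the sample labels. The deposited values are log2 intensities, summarised per probe set by the authors with RMA, which subtracts background, quantile-normalizes the arrays and fits a median polish. Affymetrix Expression Console 1.1.2800.19935 is the program named by the submitters' processing notes, and a genome build was not given in the sources used here. RMA compresses differences of dim probe sets. Of 29214 probe sets, 15310 had 1 gene symbol, 323 had several and 13581 had none. The number of arrays limits the precision, and no array was left out.

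All arrays entered one linear model in limma 3.58.1 (R 4.3.3), with 12 residual degrees of freedom and two-sided tests. There were 14 comparisons. The genes named are the 10 members, of each gene list the largest rise and fall in LD against control and all genes of counts of 5 or fewer, the 3 genes most alike each member, and Gfap. Nfe2l2, Atf7, Creb1, Atf1, Hspa5 and Xbp1 were named after their values were seen. The members and lists were chosen with earlier results of these data known. The fit was tested on simulated data with planted changes. Alternatives were the methods' t-test (pairwise comparisons only), the compared groups alone, a variance trend, array weights, a 2-fold limit, centring, quantile and loess normalization, a filter on dim probe sets, the mean of a gene's probe sets, a block for the replicate number, and each array left out. Same-numbered arrays showed little common deviation (median r = -0.05, 10 of 45 pairs over 0.1). The labels give no pairing, and none was modelled in the main fit. This check cannot exclude one.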

Additional observations from a re-analysis of the deposited data

How the results depend on the processing

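None of the differences of the 10 genes changed direction where it was called: among the values under the alternatives, 2744 stayed on their side of the threshold, 52 fell below it and 20 came above it. The 2744 include values that were not called in the main fit, among them those of comparisons without a call. They therefore do not measure how stable the calls were. Counts of genes that passed moved as follows. With array weights, 5 passed in LD against control and 5 in PBMLD against control, where 3 had passed in each, and Ddit3 alone passed in PBM against control and in SafLD against LD (1 gene each, where 0 had passed). Array weights raised the calls among all probe sets too. These went from 325 to 622 in LD against control, from 220 to 642 in PBMLD against control and from 45 to 802 in PBM against control. In SafLD against LD they went from 90 to 642. Over all arrays 9 members passed with array weights, with Ddit4 (lower, adjusted p = 0.0466) and Ppp1r15a (higher, adjusted p = 0.0498) added to the 7. The calls among all probe sets rose there as well, from 1409 to 2682. The methods' t-test after adjustment gave 0 in LD, PBMLD and SafLD against control, in PBMLD against PBM and in SafLD against saffron. Among all probe sets it called 0, 0 and 10 in the first 3 of these. With the compared groups alone, 1 gene passed in PBMLD against PBM. It was Trib3, while Atf3 no longer passed (adjusted p = 0.157). With a 2-fold limit 2 passed in SafLD against saffron, as with the unadjusted t-test and that limit, and 2 over all arrays. With 1 array left out, the count ran from 2 to 3 in LD against control, 2 to 4 in PBMLD against control, 3 to 3 in SafLD against control, 2 to 3 in PBMLD against PBM, 3 to 5 in SafLD against saffron and 7 to 7 over all arrays, and it was 0 to 0 in the comparisons without a call. With the arrays rich in lens RNA left out, chosen after seeing the data, the counts were 3 and 3 for PBMLD and SafLD against control, 3 for PBMLD against PBM and 4 for SafLD against saffron. LD was left with 1 array, so no count is given for LD against control or over all arrays. In these, Vldlr and Atf4 respectively no longer passed. Leaving out dim probe sets removed Chac1 from the test, and Vldlr in PBMLD against control (adjusted p = 0.0415), Atf5 in SafLD against control (0.0319) and Atf5 in PBMLD against PBM (0.0252) then passed.

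With the replicate block, Atf5 in SafLD against saffron no longer passed (0.49, adjusted p = 0.0586), and it changed no other call. For 5 of 18 arrays the most alike array of another group bore the same number. Background correction and probe summarisation could not be varied from the summarised values, and no scan batch is given.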
